A study of Mus musculus with 73 samples.

Results

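Order-swapped tandem enhancer pairs are combinations in which the same 2 enhancers, on the same strand, were measured once with the first enhancer in position 1 and once with it in position 2. They were taken from a massively parallel reporter assay of enhancer-enhancer-promoter combinations in E14tg2a, a line of mouse embryonic stem cells (mESCs) grown with 2 kinase inhibitors and LIF, which keep such cells in the naive state, and collected 24 hours after the plasmids were introduced. Each of 8 plasmid libraries carried 1 promoter (*Sox2*, *Klf2*, *Otx2*, *Fgf5*, *Lefty1*, *Nanog*, *Ap1m1* or *Tbx3*) and was transfected in 3 biological replicates. Downstream of a promoter and a barcoded reporter each plasmid carried 2 fragments, either enhancers (E) or scrambled control sequences (C), and position 1 is the one the table lists first. In the design this is the place nearer to the barcode. The paper took the fragment of position 1, and its orientation, from the read that also holds the barcode. Whether the table keeps this on both strands was not checked, so that all positions below are those of the table. The activity of a combination is the ratio of its barcodes in cDNA to those in plasmid DNA, so that it reports RNA per plasmid copy outside the chromosome. A combination entered if neither fragment was a control, both lay on the same strand, the exchanged order was present in the same library, and both orders were above 0 in all 3 replicates. This selected 28356 of the 110180 measured combinations, which form 14178 pairs of orders. The libraries held from 1328 (*Fgf5*) to 2091 (*Lefty1*) such pairs, built from 58 enhancers of 9 loci.

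Of 34649 tandem EE combinations in all libraries, 6245 lacked the exchanged order and 48 were at 0 in a replicate, 46 of them in the *Fgf5* library. No tandem EE combination carried the same fragment in both positions. On the plus strand there were 6335 pairs and on the minus strand 7843, and in 5428 cases the same 2 enhancers had both orders on both strands within a library. The lowest activity just inside the limit of 0 was 0.0314, in the *Lefty1* library.

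Enhancers are classically described as elements that raise transcription from a promoter regardless of their distance and orientation. In a plasmid reporter with 2 of them in a row, each element differs in its distance from the promoter, in its neighbours and in which of its ends faces the other element. Most of the loci used here belong to genes that keep mESCs pluripotent or mark their exit from that state. *Pou5f1* (which encodes Oct4), *Sox2*, *Nanog*, *Klf2* and *Tbx3* encode transcription factors of the pluripotency network, *Otx2* and *Fgf5* mark cells that leave naive pluripotency, and *Nodal* and *Lefty1* encode a signalling ligand and its inhibitor. *Ap1m1* encodes a subunit of a clathrin adaptor and is expressed broadly.

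The results below turn on a few fragments, and the primer pairs that bound 5 of them are shown. If a plus means reading from the forward primer, that primer marks the end of a fragment that comes first on the plus strand. The primers are those of the study, each written 5′ to 3′ in lower case, with the reverse primer on the opposite strand. The listed windows of 450 bp are in mm10.
Pou5f1_E084 forward primer: gattagacgcttgtagcttgaactgtc
Pou5f1_E084 reverse primer: ggagagagcctgattgattagcaaatg
Lefty1_E093 forward primer: aattgctcaaactagggttgtgtgg
Lefty1_E093 reverse primer: ctagtcagtgttctcctgccctc
Otx2_E108 forward primer: gctaggataatgcgcaaattcatgaag
Otx2_E108 reverse primer: aaatgtgttgatagaggagcggattac
Fgf5_E040 forward primer: cagagttccacaaagtccagtaattg
Fgf5_E040 reverse primer: attgatcatggtgtctgttcacagtag
Nodal_E162 forward primer: cttctcaggtcacgtttgcctc
Nodal_E162 reverse primer: cgataggcattgtactgcttggg

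Pou5f1_E084 lies at chr17:35509279-35509728 and overlaps the *Pou5f1* gene in RefSeq (GRCm38.p6), and Nodal_E162 lies at chr10:61423210-61423659 and overlaps *Nodal*. Lefty1_E093 lies at chr1:180924673-180925122 and overlaps the long non-coding RNA gene *Gm39715*. Sox2_E181 at chr3:34759891-34760340, Otx2_E108 at chr14:48652530-48652979 and Fgf5_E040 at chr5:98313134-98313583 overlap no RefSeq gene. Where the windows of neighbouring enhancers overlap, the reverse complement of the reverse primer of Pou5f1_E082 shares 20 bases with the forward primer of Pou5f1_E083, which starts at a higher coordinate. Forward primers therefore lay at the lower coordinate in that case. That a plus in the table means reading from the forward primer is assumed here.

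The 2 orders of a tandem pair had similar activities in most cases. Pearson's R between orders was calculated over pairs entered in both directions, from activities averaged over replicates. The SD given with it is that of the R of the 3 single replicates, which need not centre on the printed value. R was 0.913 ± 0.031 in the *Sox2* library, 0.899 ± 0.012 with *Lefty1*, 0.896 ± 0.032 with *Tbx3* and 0.896 ± 0.066 with *Fgf5*. It was 0.799 ± 0.026 with *Otx2*, 0.791 ± 0.044 with *Nanog*, 0.788 ± 0.061 with *Klf2* and 0.665 ± 0.029 with *Ap1m1*. The libraries with lower R had a narrower range of activities, the middle 90% of log2 activities lying between -0.90 and 0.63 with *Ap1m1* and between -2.47 and 1.73 with *Lefty1*. These are correlations across pairs, which share enhancers, and they are given as a description.

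The order difference is the log2 activity with a given enhancer in position 1 minus the log2 activity with it in position 2. For its median size, activities were averaged over replicates, and the SD is that of the medians of single replicates. Its median size was smallest with *Ap1m1*, at 0.22 ± 0.01 (SD, n = 3), and largest with *Fgf5*, at 0.38 ± 0.10, and between these lay *Otx2* at 0.24 ± 0.02, *Klf2* at 0.25 ± 0.01, *Nanog* at 0.28 ± 0.02, *Sox2* at 0.29 ± 0.03, *Tbx3* at 0.35 ± 0.02 and *Lefty1* at 0.35 ± 0.01. The median SD of a pair's difference over replicates was between 0.15 (*Nanog*) and 0.19 (*Tbx3*) in 7 libraries and 0.41 in the *Fgf5* library. Differences above 1 log2 unit, a 2-fold change, made up 1.34% of the pairs with *Klf2*, 1.65% with *Ap1m1*, 2.29% with *Nanog*, 2.37% with *Otx2*, 5.23% with *Sox2*, 7.48% with *Tbx3*, 9.13% with *Lefty1* and 12.9% with *Fgf5*. The *Fgf5* library thus combined the largest differences with the largest spread between replicates.

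The differences recurred. Between replicates of a library their Pearson's R ranged from 0.352 to 0.464 with *Fgf5* and from 0.541 to 0.797 in the other libraries. Between 2 libraries, which have different promoters and barcodes but were made from the same pool of enhancer pairs, R of the differences of the same pair on the same strand had a median of 0.677 over the 28 library pairs, from 0.367 to 0.820. The sign was shared by 75.7% of the pairs in the median library pair. The same 2 enhancers on the other strand gave no such relation. Within a library R between the plus-strand and the minus-strand difference lay between -0.10 (*Lefty1*) and 0.05 (*Klf2*), and between libraries it lay between -0.10 and 0.03. The sign was shared between the strands by 50.4% (*Ap1m1*) to 56.6% (*Klf2*) of the pairs of a library.

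Over libraries, 1647 EE pairs were measured in at least 6 libraries and were tested with limma against no difference. Of these, 882 (53.6%) had an adjusted p below 0.05. Of all 2516 tandem pairs tested, EC and CC pairs included, the share was 51.1%, and it was 47.7% of 776 EC and 35.5% of 93 CC pairs. EE pairs are the larger part of the 2516, so that their share lies close to that of all pairs by construction. It was above the shares of EC and CC pairs, but differences between these shares were not tested. The difference had 1 sign in every library measured in 678 of the 1647 tested EE pairs (41.2%), 652 of them among those called, which the call itself favours. The mean difference of the called pairs was mostly small. Its median size was 0.40, and it was above 0.5 in 291 pairs and above 1 in 30. Of 611 enhancer pairs tested on both strands, 216 were called on both, 271 on 1 strand and 124 on neither. Among the 216, the same enhancer was the one favoured in position 1 on both strands in 122 and the opposite one in 94.

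The 10 called pairs with the largest mean difference of 1 sign were built from few enhancers. Sox2_E181 was in 5 of them and Pou5f1_E084 in 5, with the pair of these 2 among them, so that the pairs are not independent. The largest difference was that of Tbx3_E207, which overlaps the *Tbx3* gene, with Sox2_E181 on the minus strand. With Tbx3_E207 in position 1 the activity in the 21 samples of 7 libraries was between 0.892 and 2.20, with a median of 1.21. With Sox2_E181 in position 1 it was between 0.173 and 0.807, with a median of 0.455. The 3 replicates of the 2 orders did not overlap in any of the 7 libraries. Here and for the pairs below, the choice of pairs by size and sign favours such a separation. How often it occurs among all tested pairs is not given here. The mean difference was 1.76 ± 0.24 log2 units (SE; limma, adjusted p = 0.000399), from 0.77 with *Ap1m1* to 2.71 with *Sox2*. On the plus strand the same 2 enhancers differed the other way, by -1.11 ± 0.21 (adjusted p = 0.00154, 8 libraries), so that there Sox2_E181 was the one favoured in position 1.

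The pair of Pou5f1_E084 and Nodal_E162 on the plus strand was next. With Pou5f1_E084 in position 1 its activity over 24 samples was between 0.410 and 1.14, with a median of 0.692. With Nodal_E162 in position 1 it was between 0.0768 and 0.515, with a median of 0.296. These ranges pool libraries whose baselines, the median activity of CC combinations, ran from 0.0866 (*Lefty1*) to 0.587 (*Ap1m1*). With *Klf2*, *Otx2*, *Fgf5*, *Nanog* and *Ap1m1* the order with Nodal_E162 in position 1 lay below the baseline. The orders did not overlap within any of the 8 libraries. The mean difference was 1.47 ± 0.16 (limma, adjusted p = 0.000111), and on the minus strand it had the same sign and was 0.63 ± 0.07 (adjusted p = 0.000131).

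Pou5f1_E084 was also favoured in position 1 against a fragment of its own locus and against 2 more of other loci. With Pou5f1_E083, which lies at a lower coordinate in the non-coding RNA gene *Gm32362*, the difference on the plus strand was 1.29 ± 0.15 (adjusted p = 0.000117, 8 libraries without overlap of the orders), and on the minus strand it was 0.01 ± 0.12 (adjusted p = 0.928). With Tbx3_E208 it was 1.38 ± 0.19 on the plus strand (adjusted p = 0.000607) and -0.79 ± 0.23 on the minus strand (adjusted p = 0.0208). With Nodal_E156 it was 1.42 ± 0.13 on the minus strand (adjusted p = 9.36e-05, 7 libraries), and the plus strand was measured in fewer than 6 libraries.

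Sox2_E181 gave the lower activity in position 1 of its 4 named minus-strand pairs and the higher one in position 1 of its named plus-strand pair. Against Otx2_E108 on the minus strand the difference in favour of Otx2_E108 in position 1 was 1.35 ± 0.17 (adjusted p = 0.000187). The activity with Otx2_E108 first was between 0.730 and 1.74 over 24 samples, and with Sox2_E181 first it was between 0.167 and 0.801, without overlap in any library. Against Otx2_E110 the difference was 1.36 ± 0.28 (adjusted p = 0.00292) and against Pou5f1_E084 1.31 ± 0.13 (adjusted p = 9.38e-05), both on the minus strand. The replicates of the orders overlapped with *Klf2* and *Ap1m1* in the pair with Otx2_E110 and with *Lefty1* in the pair with Pou5f1_E084. On the plus strand these 3 differences were -0.80 ± 0.15, -0.97 ± 0.21 and 0.48 ± 0.13, so that Pou5f1_E084 alone kept its advantage. With Pou5f1_E082 on the plus strand, Sox2_E181 in position 1 was higher by 1.41 ± 0.24 (adjusted p = 0.00175), and on the minus strand the difference was -1.13 ± 0.16 (adjusted p = 0.000791). On the plus strand its orders overlapped with *Tbx3*. The remaining named pair was Otx2_E110 before Fgf5_E039 on the minus strand, at 1.32 ± 0.30 (adjusted p = 0.00456), with -0.72 ± 0.22 on the plus strand (adjusted p = 0.0198). It spread most between libraries, from 0.11 with *Ap1m1* to 3.04 with *Fgf5*, and its replicates overlapped between orders with *Klf2* and *Ap1m1*.

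Within single libraries, where the 3 replicates share the same barcodes and the test covers only the spread between transfections, limma called 675 of 2091 EE pairs with *Lefty1* (32.3%, against 27.7% of all tandem pairs tested there). It called 572 of 1831 with *Nanog* (31.2% against 30.4%), 398 of 1832 with *Tbx3* (21.7% against 20.6%), 329 of 1868 with *Klf2* (17.6% against 19.1%), 296 of 2058 with *Ap1m1* (14.4% against 16.8%), 268 of 1773 with *Otx2* (15.1% against 15.3%) and 232 of 1397 with *Sox2* (16.6% against 15%). EE pairs are the larger part of the pairs tested in each library, so that these shares lie close to those of all pairs by construction. They were above them with *Lefty1*, *Nanog*, *Tbx3* and *Sox2* and below them with *Klf2*, *Ap1m1* and *Otx2*. Differences between EE pairs and pairs with controls were not tested here. With *Fgf5* it called 0 of 1328 (0% against 0%), although 265 had an unadjusted p below 0.05, and a comparison that left the replicates unpaired called 24. The differences called in a library had the sign of the mean over the other libraries in 95.9% (*Ap1m1*) to 99.2% (*Tbx3*) of the cases. Over all EE pairs of a library this share was between 75.2% (*Ap1m1*) and 84.8% (*Lefty1*).

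The largest called difference within a library was that of Nodal_E160 and Pou5f1_E079 on the minus strand with *Lefty1*. The activities were 2.45, 2.65 and 2.90 with Nodal_E160 in position 1 and 0.174, 0.0828 and 0.167 in the exchanged order. The difference was 4.31 ± 0.27 (adjusted p = 0.0193), but the pair had both orders in only 2 other libraries, where it was -0.52 and 2.02. Otx2_E110 before Pou5f1_E082 on the plus strand gave the largest called difference with *Otx2*, 2.17 ± 0.16 (adjusted p = 0.0324), and with *Nanog*, 2.37 ± 0.38 (adjusted p = 0.0233). Counted from either of these 2 libraries, it had the same sign in all of the 4 others that held it, and these 4 include the second of the 2. The largest one with *Ap1m1* was Klf2_E061 before Nanog_E073 on the minus strand, 1.42 ± 0.27 (adjusted p = 0.0432). With *Klf2* it was the pair of Pou5f1_E084 and Nodal_E156 described above (1.86 ± 0.30, adjusted p = 0.0317), and with *Sox2* and *Tbx3* that of Tbx3_E207 and Sox2_E181 (2.71 ± 0.10 and 2.62 ± 0.17, adjusted p = 0.0261 and 0.0225).

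Exchanging the order changed activity by about as much as turning the fragments over. A pair on both strands has 4 tandem forms, and 3 changes between them were compared in those with all 4. The median size of the difference was 0.36 for the exchanged order, 0.36 for both fragments turned in place and 0.37 for the whole insert turned with *Lefty1*, and 0.22, 0.27 and 0.26 with *Ap1m1*. Over the 8 libraries the difference between exchanging the order and turning both in place was -0.006 ± 0.027 (SD, n = 8 libraries; two-sided exact sign-flip permutation test, p = 0.539). Turning the whole insert exchanges the positions and turns both fragments. The median for the exchanged order minus that for the turned insert was -0.018 ± 0.014 (exact sign-flip permutation test, p = 0.00781, the smallest that 8 libraries allow) and was below 0 in 8 of 8 libraries. Without replicate 1 it was -0.012 (p = 0.141 by the same exact test).

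Over all levels of activity, EE pairs had smaller order differences than pairs with controls, and among pairs above the baseline the gap was narrower. The median size of the order difference was lower for EE than for EC pairs in 8 of 8 libraries, by -0.094 ± 0.092 (SD; exact sign-flip permutation test, p = 0.00781). It was 0.22 against 0.34 with *Ap1m1*, 0.25 against 0.33 with *Klf2*, 0.24 against 0.30 with *Otx2*, 0.28 against 0.34 with *Nanog* and 0.29 against 0.32 with *Sox2*. With *Lefty1* it was 0.35 against 0.40, with *Tbx3* 0.35 against 0.40, and with *Fgf5*, from 141 EC pairs only, 0.38 against 0.69. Among pairs with both orders above the CC baseline EE pairs differed from EC pairs by -0.044 (p = 0.00781 by the same exact test), and with a pseudocount of 0.1 it was -0.044 (exact sign-flip permutation test, p = 0.0703). Against CC pairs, with at least 10 in each of 7 libraries, the EE value was lower in all 7, by -0.25 ± 0.11 (exact sign-flip permutation test, p = 0.0156, the smallest that 7 libraries allow). Among pairs with both orders above the median of the CC combinations, the difference from CC pairs was -0.030 (exact sign-flip permutation test, p = 0.438).

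The stronger of 2 enhancers had no common advantage in position 1. The strength of each enhancer was taken from its EC combinations, which are not members, as the mean of its medians in the 2 positions with at least 5 combinations each. The mean difference with the stronger enhancer in position 1 minus position 2 was 0.031 ± 0.094 over libraries (SD, n = 8; two-sided exact sign-flip permutation test, p = 0.383), with 4 libraries above 0. On the plus strand alone it was -0.018 (p = 0.617 by the same exact test), with 4 libraries above 0. On the minus strand alone it was 0.072 (p = 0.0703 by the same exact test), with 7 above 0. With *Klf2*, *Otx2* and *Nanog* the value was below 0 on the plus and above 0 on the minus strand. The libraries differed in sign by more than the spread of their replicates. The value was 0.14 ± 0.01 (SD, n = 3) with *Sox2*, 0.12 ± 0.04 with *Fgf5*, 0.11 ± 0.01 with *Lefty1* and 0.066 ± 0.016 with *Tbx3*, with all 3 replicates above 0 in each. With *Klf2* it was -0.034 ± 0.016 and with *Ap1m1* -0.13 ± 0.01, with all replicates below 0, and with *Otx2* (-0.008 ± 0.013) and *Nanog* (-0.012 ± 0.014) the replicates lay on both sides of 0. In the *Ap1m1* library, which had the highest baseline of -0.77 log2 units, the stronger enhancer in position 1 gave the higher activity in 22.4% of the 660 pairs with the widest gap in strength, where the mean was -0.25. In the 442 pairs with the widest gap with *Sox2* it did so in 68.6%, with a mean of 0.16. With *Lefty1* and *Tbx3*, whose baselines were lower than that of *Sox2*, the shares were 61.7% and 53.7% and the means 0.11 and 0.008. In the remaining libraries the share lay between 41.9% (*Klf2*) and 63.1% (*Fgf5*).

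Pairs of the same locus whose windows do not overlap, from 135 (*Fgf5*) to 209 (*Lefty1*) per library, were compared between the order of the genome and the exchanged order. The mean difference was -0.004 ± 0.029 (SD, n = 8 libraries; exact sign-flip permutation test, p = 0.758), from -0.059 with *Fgf5* to 0.037 with *Sox2*, so that no difference between native and exchanged order was found beyond the spread between libraries. On the minus strand alone, where the order of the genome puts the higher coordinate in position 1, it was -0.035 (exact sign-flip permutation test, p = 0.00781, below 0 in 8 of 8 libraries), and on the plus strand it was 0.032 (p = 0.141, by the same exact test). On either strand this is a higher mean with the lower coordinate in position 1, but only the minus strand passed the test.

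To ask which enhancers preferred a position, each order difference was written as the preference of the enhancer put first minus that of its partner, and the preferences were fitted by least squares in each library and centred on 0. A preference of 0.3 means an activity higher by 0.3 log2 units in position 1 than in position 2 when the partner has none. Since only differences between enhancers enter the fit, 0 is the average of the enhancers fitted together, and a preference for position 1 or 2 is relative to that average. Of 57 enhancers with at least 10 pairs in at least 6 libraries, limma over libraries called 20 for position 1 and 20 for position 2, or 70.2%. The preferences ran from -0.40 to 0.44 and took up between 20.8% (*Fgf5*) and 35.2% (*Tbx3*) of the sum of squares of the order differences. Between libraries they had a median R of 0.811, from 0.384 to 0.920 over 28 library pairs.

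Pou5f1_E084 had the highest preference for position 1, 0.44 ± 0.04 (SE, n = 8 libraries; limma, adjusted p = 3.61e-07), from 0.22 with *Sox2* to 0.65 with *Lefty1*. Fgf5_E040 followed with 0.29 ± 0.03, Sox2_E179 with 0.27 ± 0.03, Klf2_E057 with 0.25 ± 0.03, Lefty1_E093 with 0.24 ± 0.03 and Klf2_E061 with 0.23 ± 0.03, and each was above 0 in 8 of 8 libraries. The strongest preference for position 2 was that of Nodal_E162, -0.40 ± 0.05 (adjusted p = 9.10e-06), from -0.66 with *Fgf5* to -0.10 with *Ap1m1*. Pou5f1_E083 had -0.28 ± 0.03, Lefty1_E095, which overlaps *Lefty1*, -0.28 ± 0.03 in 7 libraries, Nodal_E158 -0.22 ± 0.03, Tbx3_E206 -0.22 ± 0.03 and Tbx3_E203 -0.20 ± 0.03. Each of these was below 0 in every library measured.

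Fitted apart for each strand, the preferences were larger and differed between strands. They then took up 41.5% (*Fgf5*) to 67.6% (*Ap1m1*) of the sum of squares on the plus strand and 39.6% (*Fgf5*) to 60.0% (*Lefty1*) on the minus strand, in fits of up to 58 preferences each over 576 to 1135 pairs. Of 111 enhancers taken by strand, 38 were called for position 1 and 42 for position 2 (72.1%), and their SD was 0.23 against 0.16 with the strands together. Over the 54 enhancers with both strands, R between the plus and the minus preference was 0.04. Relative to the average of each strand, 16 were called for the same position on both strands, 12 for opposite positions, 11 on the plus strand alone, 11 on the minus strand alone and 4 on neither. The average was set to 0 on each strand separately, so that these counts depend on it. Against controls, where it is not set, the mean difference between position 1 and position 2 was 0.05 over 34 enhancers on the plus strand. It was -0.10 over 36 on the minus strand. Of the 12 called for opposite positions, Otx2_E111 (-0.24 and -0.16), Tbx3_E209 (-0.21 and -0.02) and Otx2_E108 (0.005 and 0.53) had the same sign on both strands there. Sox2_E181 (0.57 and -0.96), Nodal_E157 (0.08 and -0.47) and Pou5f1_E080 (0.17 and -0.15) had opposite signs. The rest of the 12 were not measured on both strands against controls. The difference between strands, relative to these averages, passed limma's test in 37 of the 54 (68.5%). The mean of both strands and their difference divided by 2 varied alike over enhancers, with SDs of 0.17 and 0.16. Position 1 on the plus strand and position 2 on the minus strand place the same end of a fragment against its partner, so that, if the table's positions are the physical ones on both strands, the first quantity follows the position and the second the end that faces the partner.

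Sox2_E181 showed the largest reversal. On the plus strand its preference was 0.59 ± 0.05 (adjusted p = 8.84e-07), between 0.31 (*Sox2*) and 0.74 (*Lefty1*), and on the minus strand it was -0.71 ± 0.07 (adjusted p = 9.10e-06), between -1.06 (*Lefty1*) and -0.34 (*Ap1m1*). The 2 strands did not overlap in any library and differed by 1.30 ± 0.10 (adjusted p = 2.20e-06). With the strands together the value was -0.16 ± 0.04, so that most of its dependence on position was lost. In its EE pairs the mean boost index, the log2 activity over the CC baseline, was 1.62 in position 1 and 1.08 in position 2 on the plus strand, and 1.42 and 2.15 on the minus strand.

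Pou5f1_E084 had 0.90 ± 0.09 on the plus strand (adjusted p = 6.03e-06), from 0.53 with *Sox2* to 1.31 with *Lefty1*, and 0.10 ± 0.04 on the minus strand (adjusted p = 0.0463). Its boost index was 1.90 in position 1 and 1.04 in position 2 on the plus strand, and 1.28 and 1.18 on the minus strand. Lefty1_E093 had 0.54 ± 0.04 on the plus strand (adjusted p = 8.84e-07) and 0.01 ± 0.03 on the minus strand (adjusted p = 0.815). Otx2_E108 went the other way, with -0.18 ± 0.03 on the plus and 0.45 ± 0.03 on the minus strand (adjusted p = 0.000184 and 8.84e-07). For these 3 the difference between strands was 0.79 ± 0.11, 0.53 ± 0.05 and -0.62 ± 0.05, with adjusted p of 0.000111, 7.71e-06 and 2.20e-06.

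Otx2_E114, whose window shares 93 bp with the region around a RefSeq start of *Otx2* on the minus strand, had -0.44 ± 0.06 on the plus strand (adjusted p = 9.81e-05, 7 libraries, with as few as 5 pairs) and 0.18 ± 0.04 on the minus strand. Nodal_E162 preferred position 2 on both strands, at -0.36 ± 0.05 and -0.43 ± 0.07, and the strands differed by 0.07 ± 0.04 (adjusted p = 0.144). Fgf5_E040 preferred position 1 on both, at 0.22 ± 0.04 on the plus and 0.38 ± 0.03 on the minus strand. Pou5f1_E083 (-0.24 ± 0.03 and -0.27 ± 0.03) and Lefty1_E095 (-0.28 ± 0.04 and -0.28 ± 0.04) also kept position 2 on both strands.

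Neighbouring enhancers with overlapping windows had no common direction of preference. Among 8 pairs of neighbours whose windows overlap by 63 to 292 bp, the preference had the same sign in 7 of 16 comparisons by strand. The paper's primers lay in the ends of the windows and gave shorter products. The fragments therefore share less sequence than their windows, by an amount that was not measured here. Nodal_E159 and Nodal_E160, whose windows overlap by 100 bp, had 0.17 and -0.23 on the plus strand and -0.12 and 0.19 on the minus strand. Pou5f1_E082 and Pou5f1_E083, whose windows also overlap by 100 bp, had -0.30 and -0.24, and -0.09 and -0.27. Strength had no common relation with the preference over enhancers, with R of 0.416 (*Sox2*), 0.313 (*Fgf5*), 0.245 (*Lefty1*), 0.094 (*Tbx3*), -0.112 (*Otx2*), -0.171 (*Nanog*), -0.296 (*Klf2*) and -0.751 (*Ap1m1*). These are descriptions over 32 to 56 enhancers of a library, and the enhancers share its partners and baseline.

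The preferences by strand were set beside combinations that had not been used to fit them. EE pairs on opposite strands, in which each fragment keeps its own strand when the order is exchanged, gave 27988 combinations. Within each library, R between their order difference and that calculated from the preferences by strand was 0.578 with *Fgf5*, 0.664 with *Sox2* and 0.710 (*Otx2*) to 0.754 (*Nanog*) in the others, over 1126 to 1939 pairs. The sign was the same in 69.6% (*Fgf5*) to 79.1% (*Klf2*) of the pairs. When the preference of the opposite strand was used for each fragment, R was between 0.028 (*Otx2*) and 0.173 (*Klf2*). In EC pairs, the order difference of 70 enhancers by strand against controls, averaged over libraries, had an R of 0.886 with their preference among enhancers. With their mean over both strands subtracted, 61 of the 70 had the sign of the preference. With the mean of each strand subtracted, as the preferences were centred, 27 of 34 did on the plus strand and 31 of 36 on the minus strand. Sox2_E181 differed there by 0.57 on the plus and -0.96 on the minus strand, Lefty1_E093 by 0.74 on the plus strand, Otx2_E108 by 0.53 on the minus strand and Nodal_E162 by -0.63 on the minus strand. Otx2_E108 on the plus strand was at 0.005 there against a preference of -0.18, Tbx3_E207 on the minus strand at -0.03 against 0.23, Otx2_E111 on the minus strand at -0.16 against 0.14 and Sox2_E180 on the minus strand at -0.13 against 0.12.

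The levels against controls show which placements were low. With controls, Sox2_E181 had a mean boost index over 7 libraries of 0.56 ± 0.35 (SD) in position 1 on the plus strand and 0.44 ± 0.17 in position 1 on the minus strand. In position 2 it had -0.03 ± 0.39 on the plus and 1.17 ± 0.38 on the minus strand. Pou5f1_E084 had 1.16 ± 1.00 in position 1 on the plus strand and -0.11 ± 0.65 in position 2 on the plus strand, and on the minus strand it had 0.35 ± 0.81 and 0.44 ± 0.91. Both enhancers were thus near the baseline in position 2 on the plus strand. The SDs here span libraries with different responses and are wide for Pou5f1_E084.

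What the preferences by strand left of the order differences still recurred, more weakly. Its R between libraries had a median of 0.414, from 0.152 to 0.585 over 28 library pairs, so that the order differences held a part common to libraries beyond the preferences of the 2 members.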

How the data were processed

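Of the 73 samples of the series, 48 are cDNA (8 libraries, 3 biological replicates, 2 sequencing runs each), 16 are plasmid DNA and 9 are inverse PCR samples. The authors linked barcodes to fragments by inverse PCR, with Bowtie2 and mm10 named in the submitters' processing notes. They averaged the barcode ratio of cDNA to plasmid DNA over at least 5 barcodes with at least 8 plasmid counts each. The deposited activity is this ratio, with 1 column per replicate, and the table gives no counts or barcode numbers, so the depth behind a value is unknown. Replicates of a library share their barcodes, and p-values within a library measure only the spread between transfections. The authors' pooled and expected values in the same table were not used.

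Log2 activities were averaged over replicates and order differences were tested with limma 3.58.1 (R 4.3.3) over libraries, or over replicates within a library, with Benjamini-Hochberg adjustment over all tandem EE, EC and CC pairs tested. Preferences were fitted in Python 3.11.15 with numpy 2.4.6, and adjusted over all enhancers. Named were the 6 highest and 6 lowest called enhancers, the 10 called pairs with the largest mean difference of 1 sign and the largest called pair of each library. The same rule was applied to preferences by strand, which were added after the data were seen. Members, lists and tests were chosen with earlier results of these data known. Alternatives left out replicates, libraries, strands or pairs of the same locus, or changed the pseudocount, the averaging, the minimum numbers or the test. The scripts were tested on simulated data.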

Additional observations from a re-analysis of the deposited data

Results flagged for a closer look

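The difference between EE and EC pairs in the median size of the order difference was -0.31 in the *Fgf5* library, apart from the other 7 libraries at -0.12 to -0.03. It stood apart by Dixon's test, as 1 of 42 results examined over the libraries, and about 1 in 20 would do so by chance. The *Fgf5* library had 141 EC pairs and the widest spread between replicates, and the part of either in this value was not tested.

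The mean difference with the stronger enhancer in position 1 was above 0 in all 3 replicates with *Sox2* (0.14), *Fgf5* (0.12), *Lefty1* (0.11) and *Tbx3* (0.066), and below 0 in all 3 with *Klf2* (-0.034) and *Ap1m1* (-0.13). That of native order was above 0 in all 3 replicates with *Sox2* (0.037) and *Ap1m1* (0.016) and below 0 with *Fgf5* (-0.059) and *Nanog* (-0.021). These differences between libraries were not tested.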

How the results depend on the processing

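The count of 882 EE pairs called over libraries stayed between 677 and 937 under all alternatives. The highest, 937, came from a fit to single replicates with the replicate number as a factor and the library as a block. The lowest came from the 1089 pairs tested in all 8 libraries, where the share called was 62.2%, against 53.6% of 1647 in the main fit. An exact sign-flip test over libraries in place of limma gave 694. The replicate numbers did not pair the libraries, since deviations of samples with the same number had a mean R of 0.018 and those with different numbers -0.009. Within a library, leaving out any replicate left limma with 0 calls in each of the 8 libraries (range 0 to 0), where fewer residual degrees of freedom remain, while 144 to 836 pairs had an unadjusted p below 0.05. With no replicate block the count was 24 with *Fgf5* in place of 0 and 195 to 638 in the other libraries, and limma with a trend called 354 in place of 232 with *Sox2*.

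The 20 enhancers called for each position stayed between 18 and 25 under all alternatives. Among the 12 named, Lefty1_E093 alone lost its call, on the minus strand (0.009), and no sign turned. Klf2_E057 had too few libraries on the minus strand alone to be tested there. All 10 named pairs kept their call. The counts by strand stayed between 35 and 39 for position 1 and between 37 and 44 for position 2.

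The difference between EE and EC pairs was -0.044 (exact sign-flip permutation test, p = 0.0703) with a pseudocount of 0.1, and that between EE and CC pairs -0.030 above the baseline. The difference of exchanging the order minus turning the whole insert was -0.012 (exact sign-flip permutation test, p = 0.141) without replicate 1, and over the replicates left out in turn it ranged from -0.018 to -0.012. The difference between exchanging the order and turning both fragments in place was 0.00085 without the *Ap1m1* library. That of the stronger enhancer in position 1 was -0.018 on the plus strand alone and 0.072 on the minus strand alone. Native order gave 0.0017 without replicate 3 (range -0.0064 to 0.0017 over replicates left out), 0.0043 without *Fgf5*, 0.032 on the plus strand and -0.035 on the minus strand. The cause of these changes was not tested. The unknown number of barcodes limits how far a single pair can be read.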
